A study of Mus musculus with 13 samples.

Results

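MERVL is an endogenous retrovirus of the mouse, and the genes described with it mark the 2-cell-like state of embryonic stem (ES) cells. The set had 8 members. They were 6 genes (Zscan4c, Zscan4d, Zscan4f, Tcstv1, Tcstv3 and Zfp352) and 2 groups of repeats (MERVL-int, the internal part of the retrovirus, and MT2_Mm, its long terminal repeat or LTR). All 6 genes were found by symbol among the 26797 genes of the replicate libraries and by identifier among the 49671 genes of the single libraries, and both repeats were found among 1552 repeat subfamilies. The members had been chosen by their levels in the single libraries, where they stood high in WT, so those levels are given as a description, with no test.

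MERVL and its LTR are transcribed in the mouse embryo when the embryonic genome is first switched on, at the 2-cell stage, and many genes of that stage start their transcripts in or near an MT2_Mm copy. A small fraction of ES cells passes through a state that resembles this stage, in which MERVL, the Zscan4 cluster, Tcstv1, Tcstv3 and Zfp352 are transcribed. The transcription factor DUX (the gene Duxf3) binds MERVL LTRs and activates the state, Dppa2 and Dppa4 act upstream of Duxf3, and chromatin repressors such as TRIM28 and the histone methyltransferase EHMT2 hold it down.

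The study asked how DNA methylation and the modification of proteins by O-GlcNAc, a sugar, silence retrotransposons. Polyadenylated RNA was sequenced from ES cells grown on gelatin in serum and leukemia inhibitory factor. WT cells (AinV15, an ES line built for doxycycline-inducible transgenes) and Dnmt1-/- cells (the D1-null strain, C allele, which lacks the maintenance DNA methyltransferase) were untreated and sequenced in 3 replicate libraries each. AinV15 carries a doxycycline-responsive transactivator. As each genotype was 1 cell line, genotype and line cannot be told apart. A further set of 4 single libraries held 1 library each of WT, Dnmt1-/-, dCas9-OGA and dCas9-OGA-D242A cells. The last pair derived from AinV15 and expressed, after doxycycline, catalytically dead Cas9 fused to a bacterial O-GlcNAc hydrolase, OGA, or to its inactive D242A form, together with 4 guide RNAs directed to the LTRs of IAP, another retrotransposon. Nothing ties the single WT and Dnmt1-/- libraries to a replicate, and nothing says that the replicates came from separate cultures, so p-values measure only the spread between these libraries. RNA from bulk cells cannot tell fewer cells in the 2-cell-like state from less RNA per such cell.

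The replicate libraries held between 26846275 and 37112247 reads on genes, and the single libraries between 18693531 and 25097983. Dnmt1 fell from a signal of 336 ± 24.1 (SD, n = 3) in WT to 75.5 ± 2.02 (n = 3) in Dnmt1-/- replicates, and it stood at 460 CPM in the single WT against 61.9 CPM in the single Dnmt1-/- library. Signal is the authors' read count divided by a scaled library size. CPM is the same kind of value, computed here from counts with the scaled gene total of each single library, so both are shares of a library. All 8 ES cell markers listed were present in the single libraries, with Pou5f1 between 886 and 1345 CPM. Of 7 of them tested in the replicates, 4 were lower and 1 higher in Dnmt1-/-, with log2 fold changes between -0.45 and 0.31, and Sox2 was not analysed there. The single WT library stood apart in its long transcripts. Of 757 genes whose longest transcript was at least 8000 bases, 27.3% were at least 2-fold lower there than in the median of the other single libraries, against 7.06% of 1274 genes under 1000 bases. The members' transcripts were between 779 and 2276 bases.

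The sequences just before 4 of the genes are shown as a description. They lie before the annotated starts, so how far reads can be told apart is taken from the transcripts, further on. Zscan4c, Zscan4d and Zscan4f are members of 1 cluster of near-identical genes on chromosome 7 that encode zinc finger proteins with a SCAN domain, linked to telomere maintenance, whereas Zfp352 is a zinc finger gene on chromosome 4. The 250 bases before each annotated start are given 5′ to 3′ on the strand of the gene, from RefSeq on GRCm38.p6. Gene positions given further on are from GENCODE, whose Zscan4d begins 11 bases upstream of the RefSeq start, so that the Zscan4d window overlaps it. The windows are chr7:11005495-11005744 (plus strand) for Zscan4c, chr7:11166149-11166398 (minus strand) for Zscan4d, chr7:11397665-11397914 (plus strand) for Zscan4f and chr4:90218570-90218819 (plus strand) for Zfp352. Capitals in Zscan4d and Zscan4f mark bases that differ from Zscan4c, and capitals in Zfp352 mark 9 copies of a 10-base unit.
Zscan4c: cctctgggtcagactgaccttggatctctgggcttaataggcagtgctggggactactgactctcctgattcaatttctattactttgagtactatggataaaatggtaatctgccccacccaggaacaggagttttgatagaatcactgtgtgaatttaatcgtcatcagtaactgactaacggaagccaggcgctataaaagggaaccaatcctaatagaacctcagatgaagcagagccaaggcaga
Zscan4d: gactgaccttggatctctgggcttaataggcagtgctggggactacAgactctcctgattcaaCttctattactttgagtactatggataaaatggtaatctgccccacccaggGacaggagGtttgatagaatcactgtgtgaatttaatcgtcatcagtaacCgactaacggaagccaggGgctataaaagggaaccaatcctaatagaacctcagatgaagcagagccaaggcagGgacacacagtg
Zscan4f: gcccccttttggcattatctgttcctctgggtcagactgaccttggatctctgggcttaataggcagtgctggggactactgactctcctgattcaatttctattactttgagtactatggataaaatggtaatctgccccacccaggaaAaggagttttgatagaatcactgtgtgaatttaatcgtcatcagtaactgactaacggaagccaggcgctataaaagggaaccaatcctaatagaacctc
Zfp352: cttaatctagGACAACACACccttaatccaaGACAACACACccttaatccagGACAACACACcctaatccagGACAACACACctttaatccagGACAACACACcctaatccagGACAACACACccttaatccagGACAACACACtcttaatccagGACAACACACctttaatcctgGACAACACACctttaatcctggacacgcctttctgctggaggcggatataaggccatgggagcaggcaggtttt

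Over the 239 bases that the Zscan4d window shares with that of Zscan4c, 7 differed, and over the 227 bases shared by Zscan4f and Zscan4c, 1 differed. The DUX motif was searched on both strands in the 250 bases before the start. It occurred in 10 of 32851 such windows (0.0304%) and in none of 36 windows of the 33 genes of the 2-cell, Zscan4, activator and member lists that had an entry, out of 70 searched. This says only that the motif's letters are not in these windows.

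The same likeness ran through the transcripts. Of all stretches of 50 bases in the annotated transcripts of a gene, 14.5% were unique to Zscan4c, 13.2% to Zscan4f and 50.4% to Zscan4d. The share was 68.6% for Tcstv3, 85.0% for Tcstv1 and 92.9% for Zfp352. The values of single Zscan4 genes are therefore uncertain, since reads may have been split or discarded among copies, and the cluster is also given as a sum.

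In the replicate libraries, 5 of the 6 member genes were lower in Dnmt1-/- than in WT cells and 1, Tcstv1, did not pass the test. The 3 Zscan4 genes fell by more than 2-fold, and Tcstv3 and Zfp352 by less. These calls come from limma on log2(signal + 0.5), with Benjamini-Hochberg adjustment over all 17297 genes tested at 0.05. All 6 members had passed the filter on low reads. The comparison moved much of the transcriptome, as 71.2% of all genes tested were called, 35.4% lower and 35.8% higher in Dnmt1-/-. By at least 2-fold, 9.41% were lower and 3.67% higher. The 3 WT and 3 Dnmt1-/- libraries did not overlap for 73.3% of genes, and for 36.2% with Dnmt1-/- lower, as for 4 of the 6 members. The median gene had a log2 fold change of 0.01 and the median member one of -0.97.

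Zscan4c (chr7:11005745-11010547) had a signal of 145, 135 and 136 in the WT libraries and of 51.7, 56.8 and 53.5 in the Dnmt1-/- libraries. Its log2 fold change, Dnmt1-/- over WT, was -1.35 ± 0.05 (SE, adjusted p from limma 5.26e-17). Zscan4d (chr7:11161374-11166159) stood at 103, 97.3 and 95.1 in WT and at 36.9, 44.8 and 35.5 in Dnmt1-/-, a log2 fold change of -1.33 ± 0.07. Every WT library of both genes lay far above every Dnmt1-/- library. Zscan4f (chr7:11397915-11402318) stood at 148, 146 and 140.5 in WT and at 53.0, 61.7 and 52.2 in Dnmt1-/-, a log2 fold change of -1.38 ± 0.06. The 3 log2 fold changes lay within 1 SE of each other.

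Tcstv3 (chr13:120316878-120318178), a gene of a small 2-cell-specific family, had a signal of 5.08, 5.06 and 3.23 in WT and of 2.26, 3.52 and 2.40 in Dnmt1-/-. The groups overlapped, as 1 Dnmt1-/- library lay above the lowest WT library, and the log2 fold change was -0.62 ± 0.15 (adjusted p from limma 0.000998). Zfp352 (chr4:90218820-90225702) had a signal of 5.99, 5.22 and 5.24 in WT and of 3.31, 4.01 and 3.02 in Dnmt1-/-, without overlap. Its log2 fold change was -0.61 ± 0.12 (adjusted p from limma 6.52e-05). It is the member whose reads are least shared with other genes.

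Tcstv1 (chr13:119893388-119894785), a relative of Tcstv3, was barely detected. Its signal was 0.589, 0.571 and 0.431 in WT and 0.418, 0.559 and 0.700 in Dnmt1-/-, from 12 to 22 reads per library. The groups overlapped, the log2 fold change was 0.03 ± 0.15 (adjusted p from limma 0.850), and no difference was called. With so few reads a small difference could be missed.

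**Figure D1:**
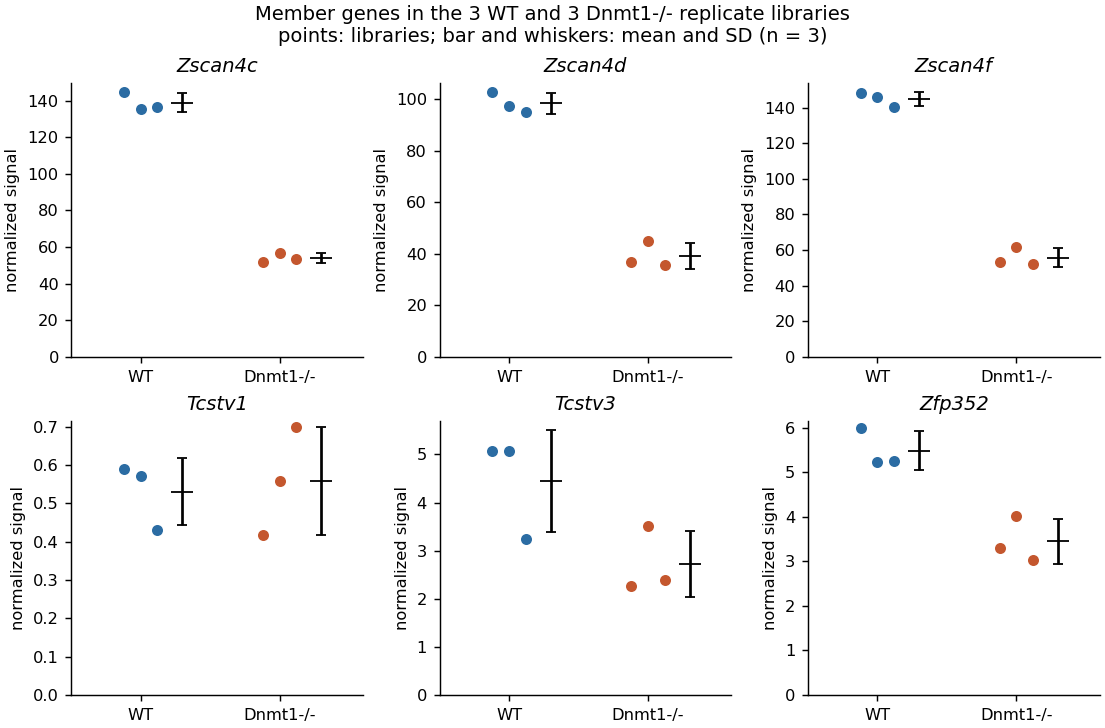
Normalized signal (vertical axis, linear from 0) of the 6 member genes in each of the 3 WT and 3 Dnmt1-/- replicate libraries, with the mean and SD beside the points. The groups do not overlap for Zscan4c, Zscan4d, Zscan4f and Zfp352, and they overlap for Tcstv1 and Tcstv3.

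Divided by exonic length, the levels of the members in WT replicates fell in the order Zscan4f, Zscan4c, Zscan4d, Tcstv3, Zfp352 and Tcstv1. The signal per kilobase was 73.9 ± 2.02, 61.0 ± 2.29 and 43.3 ± 1.76 (SD, n = 3) for the Zscan4 genes. It was 5.72 ± 1.36 for Tcstv3, 2.41 ± 0.193 for Zfp352 and 0.380 ± 0.0620 for Tcstv1. No neighbours in this order came within their SDs of each other. In Dnmt1-/- replicates the order was the same, at 28.4 ± 2.71, 23.7 ± 1.14, 17.2 ± 2.20, 3.50 ± 0.885, 1.51 ± 0.224 and 0.400 ± 0.101. The single WT library, which was counted separately, gave another order, with 2.45 CPM per kilobase for Zscan4d, 2.02 for Tcstv3, 1.79 for Zscan4c, 1.42 for Zfp352, 0.494 for Zscan4f and 0.0577 for Tcstv1.

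The rest of the Zscan4 cluster moved with the members. All 6 other genes of the cluster were lower in Dnmt1-/-, each by at least 2-fold. Zscan4a had the largest log2 fold change, at -1.83 ± 0.07, and Zscan4-ps2 the smallest, at -1.40 ± 0.05. Between them lay Zscan4-ps3 at -1.74, Zscan4b at -1.70, Zscan4-ps1 at -1.57 and Zscan4e at -1.57. Summed over all 9 genes, the cluster had a signal of 902 ± 16.8 (SD, n = 3) in WT and 318 ± 29.0 (n = 3) in Dnmt1-/-, a 2.84-fold difference.

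A wider list of 55 genes of the 2-cell-like state, which excludes the Zscan4 genes, held 47 that could be tested. Of these, 35 were lower in Dnmt1-/-, 15 of them by at least 2-fold, 5 were higher and 7 did not pass the test. Their median log2 fold change was -0.57. Gm20767 had a signal of 38.1, 36.0 and 33.0 in WT and 2.16, 2.04 and 2.73 in Dnmt1-/- (log2 fold change -3.70 ± 0.10). B020031M17Rik had 5.34, 5.53 and 4.96 in WT and at most 0.104 in Dnmt1-/-, where it had 3, 2 and 0 reads. Its log2 fold change was -3.38 ± 0.14 with the pseudocount of 0.5, -1.82 with 2, -5.16 with 0.1 and -6.43 in edgeR, so which of these genes changed most depended on the setting (under the last 3 of these, Gm20767 had -3.13, -3.90 and -3.97). Gm21761 fell by 2.20 and Gm428 by 2.20 on the log2 scale. Gm8300 fell by 1.29 and Gm5662 by 1.26, and both belong to a multicopy family related to the translation initiation factor Eif1a.

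Families within the list are given by their counts, with no test of a difference between them, against 35.4% of all genes lower and 35.8% higher. Of the 5 Pramef genes, 4 were lower and 1, Pramef8, was higher. Of the 5 Usp17l genes, which encode deubiquitinating enzymes, 3 were lower by under 2-fold and 2 did not pass the test. Of the 5 Tdpoz genes, which carry TRAF and POZ domains, 2 were lower, 1 was higher and 2 did not pass. Of the 3 Obox homeobox genes tested, 2 were lower and 1 was higher. The 2 Cphx homeobox genes that were tested did not pass. The 5 genes that were higher in Dnmt1-/- were Calcoco2, an autophagy receptor (0.95 ± 0.05), Pramef8 (0.58 ± 0.06), the homeobox gene Obox6 (0.58 ± 0.13), Tdpoz2 (0.42 ± 0.16) and Ubtfl1 (0.35 ± 0.12). The call on Ubtfl1 was lost without Dnmt1-/- replicate 2 (adjusted p from limma 0.137), and that on Tdpoz2 without WT replicate 1, without WT replicate 2 or without Dnmt1-/- replicate 2 (adjusted p from limma 0.0761, 0.0516 and 0.110). Of the 35 genes called lower, 6, named after their values had been seen, lost the call without at least 1 library. Tdpoz4 lost it without WT replicate 1 or Dnmt1-/- replicate 2 (adjusted p from limma 0.111 and 0.158), Obox3 without WT replicate 1 or Dnmt1-/- replicate 1 (0.241 and 0.137) and Obox1 without Dnmt1-/- replicate 1 (0.0580). BC061212 lost it without replicate 1 or 3 of either group (0.0785 to 0.123), and Kdm4dl without WT replicate 1 or 2 or Dnmt1-/- replicate 1 or 3 (0.0656 to 0.0952). The sixth was Tmem92. DESeq2 did not call Tdpoz2, Obox3, BC061212 or Kdm4dl. Without the filter on low reads, 42 genes of the 2-cell and Zscan4 lists together were called, 38 lower and 4 higher, against 46 with it.

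The list was also divided by how far the sequences of its genes are shared, with no test of the difference. With the 6 further Zscan4 genes counted in, 41 of 53 tested genes were lower and 5 higher, with a median log2 fold change of -0.66. Among the 28 with at least 50% unique 50-base stretches, 20 were lower and 5 higher, with a median of -0.36. Among the 8 with at least 90% unique stretches, 5 were lower (B020031M17Rik, Arg2, Ddit4l, Pramef12 and Tmem92), and 3 were higher (Pramef8, Obox6 and Ubtfl1), with a median of -0.22. The call on Tmem92 was lost without WT replicate 2 or Dnmt1-/- replicate 1 (adjusted p from limma 0.0622 and 0.0674). These limits were set after the data had been seen.

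**Figure D2:**
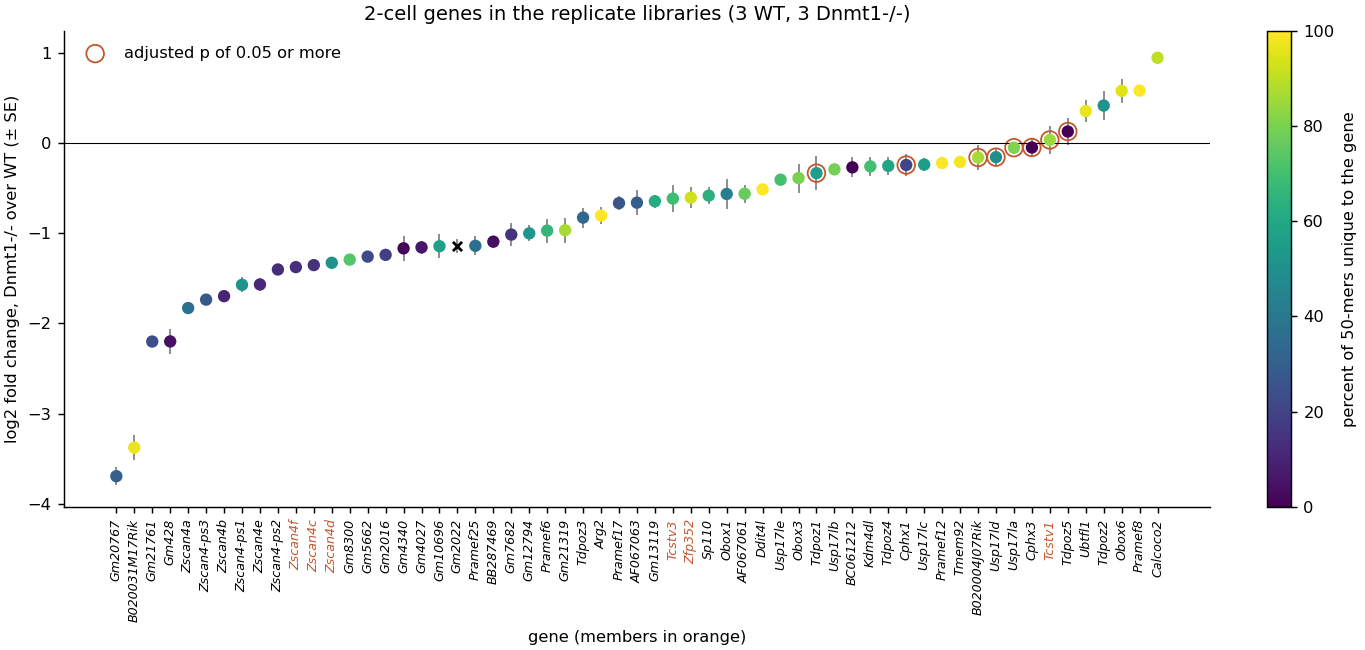
Log2 fold change (vertical axis, Dnmt1-/- over WT, ± SE) of the 6 members, the 6 other Zscan4 genes and 47 further 2-cell genes in the replicate libraries, in order of size, coloured by the percent of 50-base stretches unique to the gene (a cross marks Gm2022, with no such value). Rings mark the 8 genes that did not pass the test, and 46 of the 59 genes were lower in Dnmt1-/-.

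Among the activators of the state, Duxf3 was lower in Dnmt1-/-. Its signal was 3.08, 2.31 and 2.34 in WT and 0.627, 1.02 and 0.774 in Dnmt1-/-, a log2 fold change of -1.24 ± 0.15 (adjusted p from limma 6.16e-08), or -0.70 with a pseudocount of 2. No WT library came down to the level of a Dnmt1-/- library. Dppa2 and Dppa4 were higher in Dnmt1-/-, by 0.37 ± 0.06 and 0.19 ± 0.05, and Nelfa had a log2 fold change of -0.01 ± 0.05 and did not pass. Of 28 repressors, 16 were higher, 7 lower and 5 did not pass the test, and none changed by 2-fold. The largest rises were in nucleolin (Ncl, 0.71 ± 0.06), the methyltransferase Ehmt1 (0.56 ± 0.05), the chromatin assembly subunit Chaf1b (0.47 ± 0.06) and Zmym2 (0.43 ± 0.07). The largest fall was in the acetyltransferase Kat5 (-0.46 ± 0.06). Trim28 rose by 0.26 ± 0.06. Calls on Rybp and Ythdc1 were lost without WT replicate 3, that on Lin28a without WT replicate 3 or Dnmt1-/- replicate 2, and that on L3mbtl2 without WT replicate 1 or any Dnmt1-/- replicate.

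Markers of other cell types also differed between the replicate groups. All 7 fibroblast markers were lower in Dnmt1-/-, among them Col1a1, at 440 to 654 in WT and 119 to 133 in Dnmt1-/-. All 6 trophoblast markers tested were higher, among them Krt8, at 32.8 to 36.9 in WT and 110.1 to 114 in Dnmt1-/-. Of 6 endoderm markers, 5 were higher and 1 did not pass. The part of these cells in the fall of the members was not tested.

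In the single libraries MERVL was highest in WT. MERVL-int had 31657 counts in WT, against 2422 for Dnmt1-/-, 2789 for dCas9-OGA and 3788 for dCas9-OGA-D242A, which came to 1277, 127, 112 and 152 CPM of scaled gene counts. The WT level was 8.38-fold that of dCas9-OGA-D242A, the highest of the others (95% interval 8.10 to 8.67, counting error only), 10.0-fold that of Dnmt1-/- and 11.4-fold that of dCas9-OGA. MERVL-int took 5.10% of transposon counts in WT (95% Wilson interval 5.05 to 5.16) against 0.459% for Dnmt1-/-, 0.267% for dCas9-OGA and 0.548% for dCas9-OGA-D242A. With 1 library a condition there is no replicate check of any of these differences.

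MT2_Mm had 5268 counts in WT, 588 in Dnmt1-/-, 935 with dCas9-OGA and 815 with dCas9-OGA-D242A, or 213, 30.9, 37.7 and 32.8 CPM. WT was 5.64-fold above dCas9-OGA, the highest of the others (5.26 to 6.05). On the log2 scale this ratio to the highest of the others was 2.50, and it was 3.11 when libraries were scaled by DNA transposon counts. MERVL-int gave 6.01 counts per MT2_Mm count in WT, 4.12 in Dnmt1-/-, 2.98 with dCas9-OGA and 4.65 with dCas9-OGA-D242A. This ratio was highest in WT, and the counts were not divided by length. Among the other 3 libraries the order of MERVL-int was dCas9-OGA-D242A, Dnmt1-/- and dCas9-OGA, both as CPM and as a share of transposon counts. The order of MT2_Mm turned with the scaling, as dCas9-OGA was the highest of the 3 in CPM and the lowest as a share of transposon counts, at 0.0894% against 0.112% and 0.118%.

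Among all LTR subfamilies, MERVL-int had the largest and MT2_Mm the next largest ratio of WT to the highest other library, under each of the 6 scalings tried. Of 408 LTR subfamilies with at least 100 counts, WT was the highest library for 10.3%, and was at least 2-fold above all others for 3, or 0.735%, in CPM. These were MERVL-int, MT2_Mm and ERVB4_2-LTR_MM, the last 2.44-fold above with 188 counts in WT. The log2 ratio of WT to the highest other library had a median of -0.68 over the other 406 subfamilies. Scaling by transposon counts moved this median to -0.31 and the number at least 2-fold above, of all 408, from 3 to 6, and scaling by DNA transposon counts moved them to -0.08 and 10. None of 6 relatives of MERVL was 2-fold above all others in WT under any of these scalings. Whether WT was the highest turned with the scaling, as it was for 0 of the 6 in CPM, 5 by transposon counts and 6 by DNA transposon counts, where the largest ratio was 1.53, for MT2B1. MERVL_2A-int, an older internal part, had 51.8 CPM in WT against 69.9 in dCas9-OGA, but WT was 1.17-fold above the highest other library by transposon counts. Of 34 MaLR subfamilies, a more distant group of LTR elements, WT was the highest for 0 in CPM, 6 by transposon counts and 14 by DNA transposon counts, and for none by 2-fold.

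**Figure D3:**
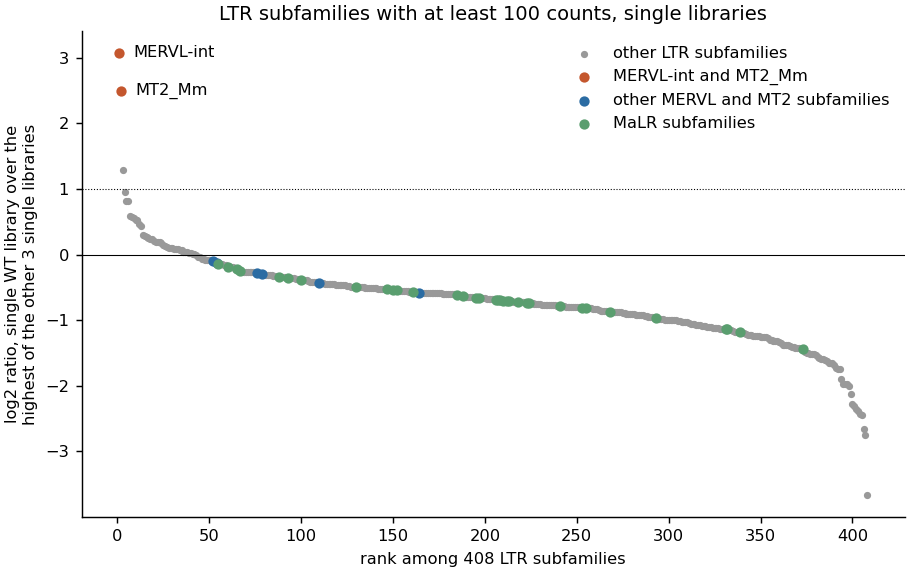
Log2 ratio of CPM in the single WT library to the highest of the other 3 single libraries (vertical axis) for 408 LTR subfamilies in order of the ratio (horizontal axis). MERVL-int and MT2_Mm lie above the other 406, whose highest value is 1.29, and the related MERVL, MT2 and MaLR subfamilies lie below 0 on this scale, though 5 of 6 MERVL and MT2 relatives and 6 of 34 MaLR subfamilies lie above 0 when scaled by transposon counts.

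The 6 member genes were highest in WT as well, from few counts. Over all genes with at least 10 counts, WT was the highest library for 32.2%, and 13.0% of genes with as many in WT and Dnmt1-/- together were at least 2-fold lower in Dnmt1-/-. Zscan4c had 101 counts in WT, 3 in Dnmt1-/-, 5 with dCas9-OGA and 11 with dCas9-OGA-D242A, and Zscan4d had 138, 5, 2 and 12. WT was 9.21-fold above the highest other library for Zscan4c (4.93 to 19.03) and 11.5-fold for Zscan4d (6.39 to 22.9). Zscan4f had 24 counts in WT, 0 in both Dnmt1-/- and dCas9-OGA and 1 in dCas9-OGA-D242A, or at least 6.14-fold more in WT than in Dnmt1-/- against a floor of 3 counts per library. Tcstv3 had 39 counts in WT and 1, 0 and 1 in the others, and Zfp352 had 80 and 1, 0 and 1. The ratio of WT to Dnmt1-/- was 29.9 for Tcstv3 (5.06 to 1211) and 61.4 for Zfp352 (10.7 to 2453). Tcstv1 had 2 counts in WT and none elsewhere, at or below the floor, and no fold is given.

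Summed over 9 genes, the Zscan4 cluster had 583 counts in WT, 17 in Dnmt1-/-, 12 with dCas9-OGA and 48 with dCas9-OGA-D242A. WT was 12.2-fold above dCas9-OGA-D242A (9.07 to 16.7). Between the last pair, which differ in the activity of the hydrolase, dCas9-OGA was at 0.250 of the level of dCas9-OGA-D242A (0.121 to 0.478). MERVL-int was at 0.737 of that level (0.702 to 0.774) and MT2_Mm at 1.15 (1.04 to 1.26). As a share of transposon counts MT2_Mm was lower with dCas9-OGA, so that its direction between the pair depends on the scaling. Zscan4c had a ratio of 0.455 with an interval of 0.124 to 1.42, which spans 1, and Zscan4d one of 0.167 (0.0181 to 0.750).

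**Figure D4:**
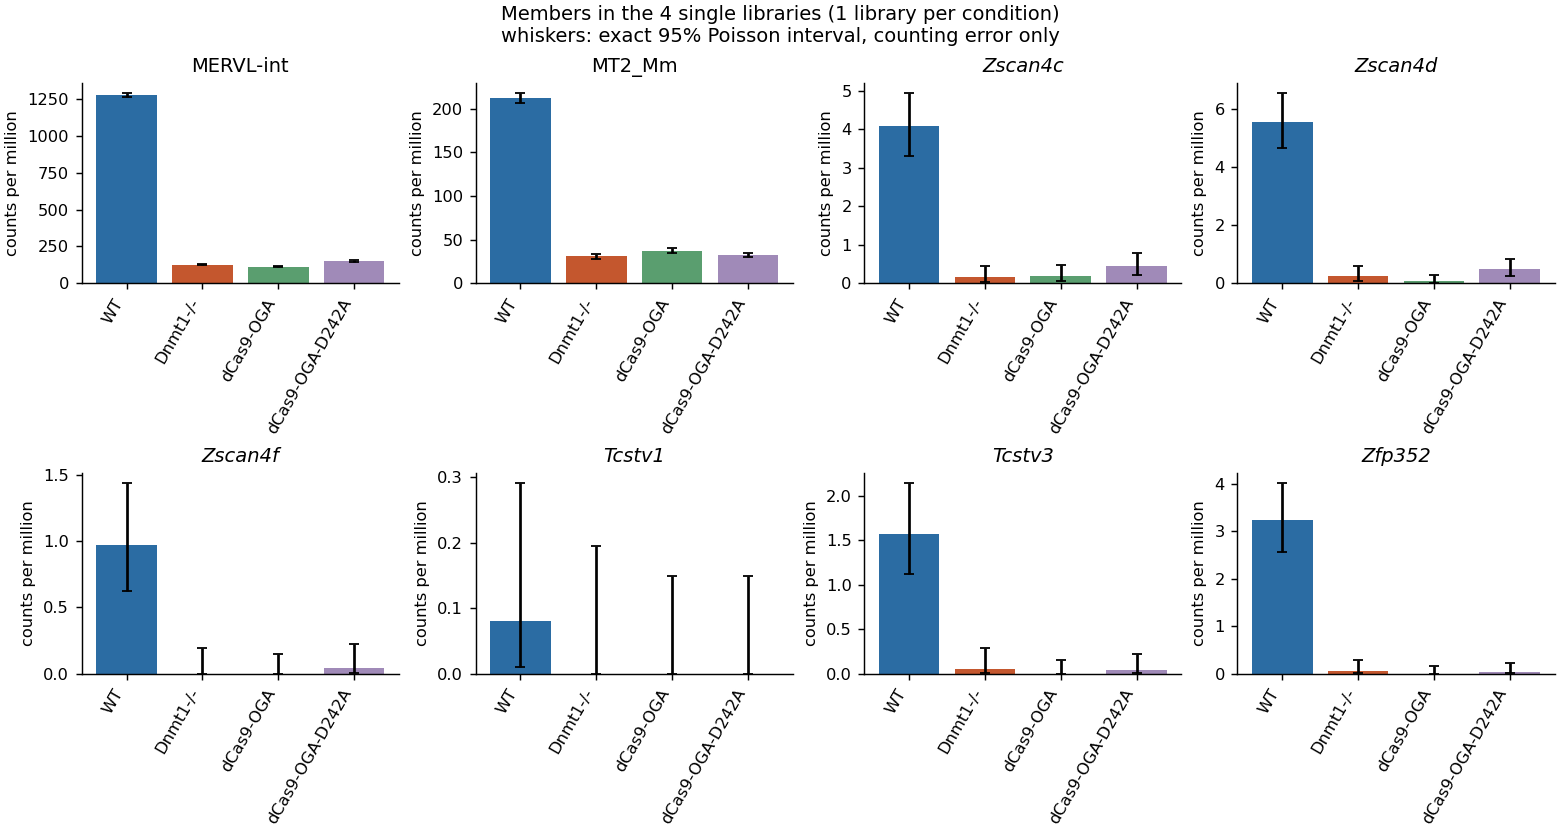
CPM (vertical axis, linear from 0) of MERVL-int, MT2_Mm and the 6 member genes in the 4 single libraries, with exact 95% Poisson intervals that cover counting error only. The WT bar is the tallest for all 8 members, and for Tcstv1 it rests on 2 counts.

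The 10 genes whose pattern over the 4 single libraries was most like that of the members, by the ratio of WT to the highest other library, were sought among 13936 genes with at least 100 counts in all, of which 2.12% were at least 2-fold above all others in WT. They were Gm8300 (53.3-fold), Gm4971 (43.7), Arg2 (36.5), Gm5662 (36.3), Gm16478 (33.5), Rdh1 (33.2), Gm11543 (30.4), Gm7957 (30.2), Gm21818 (29.5) and Usp17lb (28.6). Levels of other libraries under 3 counts were set to 3 counts, so the ratios of Gm16478, Rdh1, Gm11543 and Gm7957 are against that floor, serve the ranking only and are lower than those against the counts found. Arg2, a mitochondrial arginase, had 238 counts in WT against 5, 0 and 4. Of these 10, Gm8300, Arg2, Gm5662 and Usp17lb were on the 2-cell list. In the replicate libraries, 8 of the 10 were lower in Dnmt1-/-, against 35.4% of 17297 tested genes. Gm11543 had a log2 fold change of 0.02 and did not pass, and Rdh1 was not listed. The 10 genes reached 100 counts only through the single WT library, so no support is drawn from this count. The largest fall was in Gm21818, from 13.3, 12.5 and 12.8 in WT to 0.627, 0.592 and 0.405 in Dnmt1-/- (log2 fold change -3.69 ± 0.12). Zscan4d ranked 26 and Zscan4c 29 among the 13936 genes.

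The wider lists were described in the same way. Of 38 genes of the 2-cell and Zscan4 lists with at least 10 counts over the 4 libraries, WT was at least 2-fold above the highest other library for 33, against 4.23% of 18783 such genes. Many of them reached 10 counts only through the WT library, so no support is drawn from it. With a filter chosen after the data had been seen, of the 16 that had 10 counts over the other 3 libraries alone, WT was at least 2-fold above for 11, against 2.90% of 17889 such genes. Tmem92 had 483 counts in WT against 9, 2 and 24, and Gm21761 had 887 against 2, 8 and 49. The exceptions were Pramef8, Pramef12, Pramef17, Ddit4l and Obox6, of which Obox6 had 19 counts in WT and 58 in Dnmt1-/-. A further 18 of 60 genes were listed at 0 in all 4 libraries, 12 of them with under 50% unique stretches. Among the activators, Duxf3 had 33 counts in WT and 1, 0 and 3 in the others, a ratio of 11.0 to the highest (3.46 to 56.2). Dppa2 was 1.48-fold and Nelfa 1.63-fold above the highest other library, and Dppa4 was lower, at 41.4 CPM in WT against 61.0 to 71.6 in the others.

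None of the 28 repressors was 2-fold higher in the single WT library than in all others. Of the 28, 4 were at least 2-fold below the lowest other library, against 6.18% of all genes with at least 10 counts. They were named after their values had been seen. Mga, a subunit of a variant Polycomb complex, had 38.3 CPM in WT against 244, 280 and 238 in the others. Smchd1, a chromosomal ATPase of gene silencing, had 21.1 CPM against 99.8, 103 and 109.6, and Zmym2, a corepressor that binds the LSD1 complex, had 30.5 against 129, 113 and 116. Ncl had 710.3 CPM against 1698, 2056 and 1696. The longest annotated form had 13931 bases for Mga, 8202 for Ncl, 7052 for Smchd1 and 6974 for Zmym2. Which form was expressed was not determined. By the longest form, Mga and Ncl fall in the class of at least 8000 bases described above. Smchd1 and Zmym2 fall in the class from 4000 to 8000 bases, of whose 4183 genes 13.0% were at least 2-fold lower in WT, with a median log2 ratio of -0.04. The part of transcript length in these differences was not tested.

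Trophoblast markers were also high in the single WT library, and 5 of 7 were at least 2-fold above all other libraries. Krt8 had 6760 counts in WT and 380, 1299 and 1333 in the others, and Cdx2 had 159 and 4, 7 and 3. Elf5, a defining trophoblast factor, had 5 counts in WT against 6, 1 and 5. Of 6 endoderm markers 1, Sox17, was 2-fold above all others, and none of the 7 fibroblast and 8 ES cell markers was. The part of such cells in the levels of MERVL was not tested. Krt8 was higher in Dnmt1-/- than in WT in the replicates and lower in the single pair.

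The 2 sets of libraries cannot be set on 1 scale, as they were mapped and counted separately. With that limit, each WT level was expressed as CPM of the unscaled gene total of its own library. Zscan4c had 141.5 CPM in the median replicate WT library and 4.02 in the single WT library, a ratio of 35.2. The ratio was 158 for Zscan4f, 18.4 for Zscan4d, 3.38 for Tcstv3 and 1.71 for Zfp352. The single WT library thus had lower CPM than the replicates in all of these genes, although it was the high library of its own set. Among ES cell markers the same ratio ran from 0.242 for Pou5f1 to 3.78 for Tdgf1. The ratios of Tcstv3 and Zfp352 lie within that range.

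The ratio was also set beside how distinct the sequence of each gene is. Taken were 61 genes of the member, Zscan4, 2-cell and activator lists with at least 10 counts in the single WT library or as much CPM in the median replicate, a filter chosen after the data had been seen. Single levels under 3 counts, in 14 of these genes, were set to 3 counts. The median ratio was 42.3 over 17 genes with under 25% unique stretches (4.12 to 316). It was 9.43 over 9 genes between 25% and 50%, 4.96 over 25 genes between 50% and 90%, and 1.21 over 10 genes above that (0.557 to 46.6), and the ranges of these classes overlapped. The highest of the last class was B020031M17Rik, with 97.0% unique stretches, which had 5.57 CPM in the median replicate and 0 counts in the single library. Arg2, with 100% unique stretches, had 11.9 CPM in the median replicate and 9.48 in the single library.

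**Figure D5:**
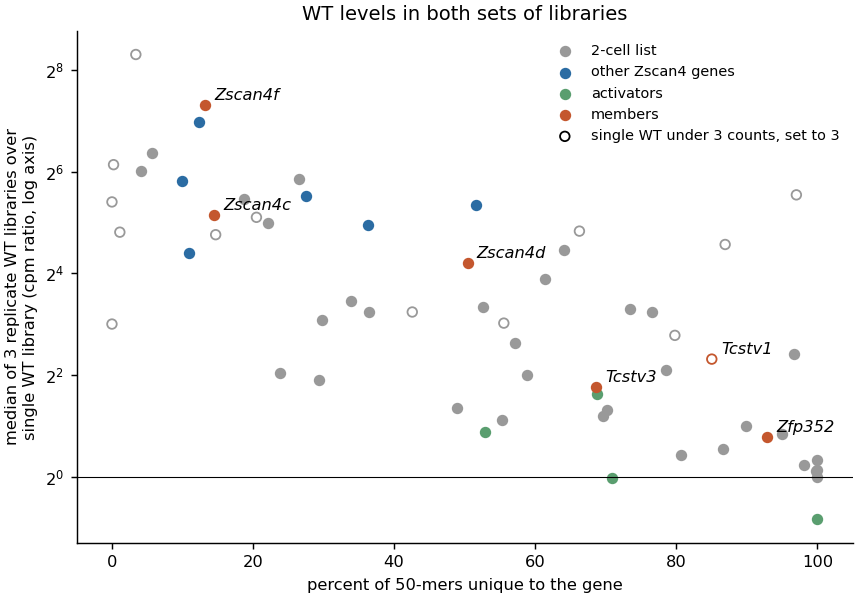
Ratio of the median replicate WT library to the single WT library in CPM (vertical axis, log scale) against the percent of 50-base stretches unique to the gene (horizontal axis) for 61 genes, with open circles for 14 whose single level was set to 3 counts. Zscan4f and Zscan4c, with under 25% unique stretches, have ratios of 158 and 35.2, and Zfp352, with 92.9%, has 1.71, while B020031M17Rik, with 97.0%, stands at 46.6 against that floor.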

How the data were processed

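Libraries were made with the TruSeq RNA kit v2 per the labels, whereas the study's methods name a stranded TruSeq kit. The authors mapped reads to mm10 and counted them on Ensembl v87 genes with featureCounts 1.5.0. The submitters' processing notes list HISAT2 2.1.0 for the replicates and TopHat2 2.0.11 for the dCas9 samples, and Bowtie2 2.2.2. For repeats, rRNA and mRNA reads were filtered before RepeatMasker subfamilies were counted. How reads with several matches were treated is not given in the sources used here.

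For the 4 single libraries the authors deposited whole counts per gene and per subfamily. The rRNA row was left out. Values deposited for the 6 replicate libraries are a signal, that is, gene counts that the authors divided by a scaled library size. Headers did not match the columns, so values were taken by position, and 100% were whole multiples of 1 read (relative tolerance 1e-06). The samples of the O-GlcNAc ChIP (3) and its input (2) were not analysed here.

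Replicates were tested on log2(signal + 0.5) with limma 3.58.1 (trend, empirical Bayes), Benjamini-Hochberg adjusted, after edgeR's filterByExpr on recovered reads. Fold changes on this scale are understated for low genes. Alternatives were pseudocounts of 0.1 and 2, no filter, TMM scaling, DESeq2 1.42.0 and edgeR's quasi-likelihood test (4.0.16) on recovered reads, a replicate block and leaving out each library. Scripts were tested on simulated data. Replicates of 1 group differed by more than sampling noise, and each was counted as 1 sample. The excess does not show that they came from separate cultures.

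Single libraries were scaled by total gene counts and edgeR's TMM factors. Ratios carry exact conditional binomial 95% intervals and levels exact Poisson ones, with a floor of 3 counts. Reads are not independent molecules, so all intervals and floors cover counting error only. Positions, lengths and unique stretches of 50 bases (over all annotated transcripts) came from GENCODE vM21 on GRCm38, which matched 49326 of 49671 identifiers. Scripts ran in Python 3.11.15 (SciPy 1.17.1, pandas 2.3.3, matplotlib 3.10.9, NumPy 2.4.6) and R 4.3.3.

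The members and the gene lists were chosen with earlier results of these data known. Named were the members, Dnmt1, up to 6 genes of each list with the largest change past the threshold or the largest WT ratio, lists of 8 or fewer in full or by their counts, and the 10 genes and LTR subfamilies most like the members.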

Additional observations from a re-analysis of the deposited data

Results flagged for a closer look

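Of the genes of the member, Zscan4, 2-cell and activator lists, 3 were higher in every Dnmt1-/- than in every WT replicate and at least 2-fold lower in the single Dnmt1-/- than in the single WT library. Below that 2-fold limit, Dppa2 also rose in the replicates, by 0.37, and was lower in the single Dnmt1-/- library, at 81.3 against 119.9 CPM. The difference between the sets was not tested. Calcoco2 had a signal of 170, 163 and 173 in WT and 351, 327 and 299 in Dnmt1-/- replicates, a log2 fold change of 0.95, and 2227 counts in the single WT against 697 in the single Dnmt1-/- library, a log2 ratio of -1.29 (95% interval -1.42 to -1.17, counting error only). Pramef8 rose by 0.58 in the replicates, from 34.6, 35.1 and 38.4 to 52.7, 52.5 and 57.0, and had 914 counts in the single WT against 333 in the single Dnmt1-/- library, a log2 ratio of -1.07 (-1.26 to -0.89). Ubtfl1 rose by 0.35 in the replicates and had 21 counts against 1 in the single libraries, a log2 ratio of -4.01 (-9.38 to -1.37).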

How the results depend on the processing

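The calls on the 6 member genes kept their direction and their side of the threshold under all 13 alternatives, except that Tcstv1, which was not called, had log2 fold changes of -0.06 to 0.13. Tcstv3 ranged from -0.81 to -0.45 and Zfp352 from -0.71 to -0.46. Leaving out 1 library gave between 11616 and 12128 called genes, 5 and 5 member genes, 42 and 45 genes of the 2-cell and Zscan4 lists, and 23 and 26 repressors and activators. Of 118 list genes tested, 13 lost a call in at least 1 alternative, 3 gained one and none reversed. Restricting the 2-cell and Zscan4 lists, after the data had been seen, to genes with at least 50% or 90% unique stretches left 25 and 8 called genes instead of 46, because fewer genes were tested. For MERVL-int the log2 ratio of WT to the highest other single library moved from 3.07 to 3.44 with TMM factors of the repeats, 3.22 with transposon counts and 3.48 with DNA transposon counts. For MT2_Mm it moved from 2.50 to 3.07, 2.85 and 3.11. The cause was not tested. These scalings, added for the other subfamilies after the data had been seen, kept MERVL-int and MT2_Mm in the first and second place of 408, while WT became the highest library for 24.5% to 39.5% of LTR subfamilies instead of 10.3%.

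Same-numbered replicates had deviations that correlated at 0.07, -0.02 and 0.07, and WT and Dnmt1-/- replicate 2 did not correlate best with each other, so the numbers were not taken to pair the samples. With the replicate block, 12556 genes were called instead of 12324, with 5 member genes, 46 genes of the 2-cell and Zscan4 lists and 26 repressors and activators called. Depth limits Tcstv1 most, at 2 counts in the single and 12 to 22 reads in the replicate libraries.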
